A study of Mus musculus with 18 samples.

Results

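Lymphatic endothelial cells (ECs) line the vessels that drain tissue fluid and carry immune cells to the lymph nodes. The transcription factor Prox1 sets and keeps their identity, the receptor Flt4 (VEGFR-3) receives the growth factor Vegfc, the hyaluronan receptor Lyve1 sits on the wall of the initial lymphatic vessels, and multimerin 1 (Mmrn1) is a secreted glycoprotein. None of these genes is found in lymphatic ECs alone: Lyve1 is also carried by some tissue macrophages, Mmrn1 by megakaryocytes and platelets, and Flt4 by blood capillaries that are sprouting or fenestrated.

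The genes described here were the table rows named Prox1, Lyve1, Flt4, Pdpn and Mmrn1. Of these 5 genes, 4 were found among the 16248 genes listed, and all 4 were among the 13983 genes tested. Pdpn, which encodes the mucin-type glycoprotein podoplanin, was not analysed here. ECs were sorted from 3 tissues of FVB female mice: the mammary fat pad of wild type animals (normal ECs), breast tumours that arose in MMTV-PyMT animals (MMTV-PyMT ECs), and breast tumours implanted into wild type animals (implanted ECs). In MMTV-PyMT mice a viral mammary promoter drives the polyoma middle T antigen in mammary epithelium, and treatment began at 9 weeks of age. Implanted tumours were grown from MMTV-PyMT tumour cells that had spent 2 days in culture and were placed with Matrigel in the fat pad of hosts 8 to 9 weeks old. The age of the normal animals was not given in the sources used here. Each tissue received an injection of cGAMP, an agonist of the innate immune sensor STING, or of phosphate-buffered saline (PBS), and was taken 3 h later. Each of the 6 groups held 3 libraries, which the study describes as coming from separate mice in 3 independent experiments.

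The 18 libraries held 8959502 to 11920692 reads assigned to genes, as recovered from the values in FPKM (fragments scaled to transcript length and library size). Behind each value stood 111 to 589 reads for Prox1, 107 to 1023 for Lyve1, 1349 to 4597 for Flt4 and 303 to 2118 for Mmrn1. The pan-endothelial markers Pecam1 (CD31, used for the sort) and Cdh5 (VE-cadherin) were high in every library, at 138.4 to 385.6 and 264.9 to 781.7 FPKM. Markers of other cells were also present after the sort. The summed level of 8 epithelial markers was 276 to 1013 FPKM and that of 8 mural markers 180 to 1148 FPKM, whereas Ptprc, which encodes the CD45 used to exclude leukocytes, stood at 0.156 to 9.73 FPKM. The implanted cGAMP libraries stood apart from one another. Library 1 had the highest pan-endothelial sum of all libraries (2633 FPKM), and library 2 the highest sums for macrophage (539.1 FPKM) and fibroblast markers (737.3 FPKM). These are bulk samples, so the share of lymphatic cells was not counted, and fewer lymphatic cells cannot be told apart from less RNA per lymphatic cell.

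In the GENCODE M21 annotation (GRCm38, the same assembly as mm10), all of these genes are protein-coding. Prox1 lies on the minus strand at chr1:190118035-190170714, Lyve1 on the minus strand at chr7:110850607-110863239, Flt4 on the plus strand at chr11:49609263-49652739 and Mmrn1 on the plus strand at chr6:60924976-60989378. Prox1 overlaps 2 genes on the opposite strand, Gm28172 and Prox1os. Whether the counting used strand is not stated, so reads from the overlap may have been shared.

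The RefSeq promoter table (GRCm38.p6) matched 4 of the 5 genes, all but Lyve1. The windows of Prox1 and Mmrn1, whose RNA was lower in both tumours, and of Flt4, whose RNA was not, are shown as the 250 bases before the annotated start, 5′ to 3′ on the gene's strand. Prox1 has a further annotated start, whose window is not shown and held no match. The Mmrn1 and Flt4 windows lie inside the gene spans given above, since RefSeq places these starts further downstream. Capitals mark a match to any of 6 motifs searched on both strands: AACAAT (SOX factors), AGGTCA (nuclear receptor half-site), CCGGAAG (ETS factors), AGATAA (factors of the GATA family), the letters TATAAA of a TATA box, and the interferon-stimulated response element.
Prox1, upstream start, chr1:190170828-190171077, minus strand: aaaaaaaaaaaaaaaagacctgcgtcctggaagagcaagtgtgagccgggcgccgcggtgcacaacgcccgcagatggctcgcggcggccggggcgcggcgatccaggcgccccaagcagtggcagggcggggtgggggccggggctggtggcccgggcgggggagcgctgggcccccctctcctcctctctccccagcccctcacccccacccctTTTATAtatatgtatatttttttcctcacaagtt
Mmrn1, chr6:60944067-60944316, plus strand: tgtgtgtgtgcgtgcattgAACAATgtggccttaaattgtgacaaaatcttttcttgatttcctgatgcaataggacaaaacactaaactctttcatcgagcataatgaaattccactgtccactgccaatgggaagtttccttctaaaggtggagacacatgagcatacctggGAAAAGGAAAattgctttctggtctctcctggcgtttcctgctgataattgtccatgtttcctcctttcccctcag
Flt4, chr11:49609429-49609678, plus strand: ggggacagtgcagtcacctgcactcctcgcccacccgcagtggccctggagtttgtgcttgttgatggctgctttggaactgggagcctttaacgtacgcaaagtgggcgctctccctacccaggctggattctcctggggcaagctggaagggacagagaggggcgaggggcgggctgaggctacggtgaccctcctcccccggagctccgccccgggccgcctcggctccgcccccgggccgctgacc
The Prox1 window held a TATA box match on the strand opposite to the gene, beginning 34 bases before the start, a motif found in 12.4% of the 32851 promoter windows. The Mmrn1 window held a SOX match 231 bases before the start and an interferon-stimulated response element match 76 bases before it, which do not overlap and are found in 9.42% and 2.98% of windows. The Flt4 window, with 68.4% G and C against 64.8% for Prox1 and 42.4% for Mmrn1, held no match to these letters. These matches describe the letters only.

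The first comparison asked how the lymphatic genes of tumour ECs differed from those of normal ECs under PBS. Prox1, Lyve1 and Mmrn1 were lower in both tumours, whereas Flt4 was higher in implanted ECs and was not separated from normal in MMTV-PyMT ECs. In the test against normal ECs, 3 of the 4 genes passed in MMTV-PyMT ECs, all 3 lower, beside 56.5% of all tested genes that passed in either direction and 26.6% that were lower. In implanted ECs all 4 passed, 3 lower and 1 higher, beside 48.7% in either direction and 23.6% lower. A gene passed when its adjusted p, from limma with Benjamini-Hochberg adjustment over all tested genes, was below 0.05. Of the genes that passed, 47.2% were lower in MMTV-PyMT and 48.6% in implanted ECs, shares that depended on the scaling (8.91% and 45.4% after centring on pan-endothelial genes, 49.9% and 65.6% with total reads). About as many of all genes passed as did not, so the size of each difference is given below for each gene.

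In the PBS libraries of normal ECs, Prox1 stood at 5.59, 5.92 and 5.63 FPKM. MMTV-PyMT ECs had 2.68, 2.53 and 1.84 FPKM, and implanted ECs 2.45, 3.34 and 3.10 FPKM. Every tumour library was below every normal library. On the log2(FPKM + 1) scale, on which all changes below are given, Prox1 was lower by a log2 change of -1.01 ± 0.18 (SE, n = 3 per group, limma adjusted p = 0.000182) in MMTV-PyMT ECs and of -0.77 ± 0.18 (limma adjusted p = 0.00215) in implanted ECs. As levels, the mean was 5.71 ± 0.179 FPKM (SD, n = 3) in normal ECs, which was 2.43 times that of MMTV-PyMT ECs (2.35 ± 0.447 FPKM) and 1.93 times that of implanted ECs (2.96 ± 0.460 FPKM). For MMTV-PyMT ECs the call did not hold when all libraries were centred on the pan-endothelial genes (limma adjusted p = 0.0552).

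Lyve1 stood at 18.8, 23.1 and 19.4 FPKM in normal ECs. The MMTV-PyMT libraries held 6.32, 6.01 and 2.89 FPKM and the implanted libraries 5.83, 10.6 and 7.07 FPKM. The normal libraries did not overlap with the tumour libraries, which overlapped with each other. The log2 change was -1.87 ± 0.34 (SE, limma adjusted p = 0.000219) in MMTV-PyMT ECs and -1.31 ± 0.34 (limma adjusted p = 0.00434) in implanted ECs. Tissue macrophages can carry Lyve1, and the summed level of 11 macrophage markers, none of them at 0, was 103.6 to 123.4 FPKM in MMTV-PyMT libraries and 126.7 to 199.9 FPKM in implanted libraries, against 78.1 to 109.5 FPKM in normal ones. Of the 11 genes 2 (Ptprc and Cd163) were lower and 1 (Cd14) was higher in each tumour, beside 56.5% (MMTV-PyMT) and 48.7% (implanted) of all tested genes that passed. Cd163, a marker of resident macrophages, stood at 1.31 to 2.25 FPKM in normal libraries and at 0.331 to 0.794 FPKM in tumour libraries. Mrc1, which resident macrophages and lymphatic ECs carry, was lower in both (-1.51 and -1.22). The part of macrophage RNA in the Lyve1 differences was not tested.

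Mmrn1 stood at 27.8, 30.4 and 25.1 FPKM in normal ECs. It was far lower in both tumours, at 6.09, 6.34 and 4.06 FPKM (MMTV-PyMT) and at 6.37, 9.57 and 6.28 FPKM (implanted). The gene showed the widest separation of the 4 genes, with a normal mean 5.05 times that of MMTV-PyMT ECs and 3.75 times that of implanted ECs. The log2 changes were -2.16 ± 0.28 (SE, limma adjusted p = 8.96e-06) and -1.79 ± 0.28 (limma adjusted p = 6.56e-05). Platelet markers moved the same way. The summed level of the 4 platelet genes measured (Ppbp, Itga2b, Gp9 and Gp1ba) was 8.41 to 12.9 FPKM in normal libraries, against 2.45 to 3.11 FPKM (MMTV-PyMT) and 3.22 to 3.64 FPKM (implanted). Of the 4 platelet genes 3 passed as lower in each tumour, beside 26.6% (MMTV-PyMT) and 23.6% (implanted) of all tested genes. The part of platelet RNA in the Mmrn1 difference was not tested.

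Flt4 behaved differently, with 45.5, 50.4 and 37.2 FPKM in implanted ECs. Normal ECs held 17.8, 19.9 and 17.9 FPKM and MMTV-PyMT ECs 17.9, 15.1 and 12.9 FPKM. Normal and MMTV-PyMT libraries overlapped, while the implanted libraries stood above all of them. The implanted mean was 2.40 times the normal mean, a log2 change of 1.21 ± 0.17 (SE, limma adjusted p = 2.26e-05). In MMTV-PyMT ECs the log2 change was -0.27, with a 95% interval from -0.62 to 0.09 (limma adjusted p = 0.189), but both the direction and the call depended on the scaling. It passed as lower with quantile normalization (-0.38, limma adjusted p = 0.0490) and as higher after centring on the pan-endothelial genes (0.37, limma adjusted p = 0.00862), which were themselves lower in these tumours.

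Between the tumours under PBS, Flt4 was the 1 gene of the 4 that passed, beside 45.5% of all tested genes. It was 2.90 times as high in implanted as in MMTV-PyMT ECs (log2 change 1.48 ± 0.17, SE, limma adjusted p = 6.09e-06), with no overlap. The differences of Prox1, Lyve1 and Mmrn1 between tumours were 0.25 (95% interval -0.13 to 0.63), 0.56 (-0.16 to 1.28) and 0.37 (-0.22 to 0.96), so changes of more than 1 log2 unit were outside the interval for Prox1 and Mmrn1 but not for Lyve1. After centring on the pan-endothelial genes these 3 differences had the opposite sign (-0.38, -0.06 and -0.25), whereas that of Flt4 kept its sign and its call.

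**Figure D1:**
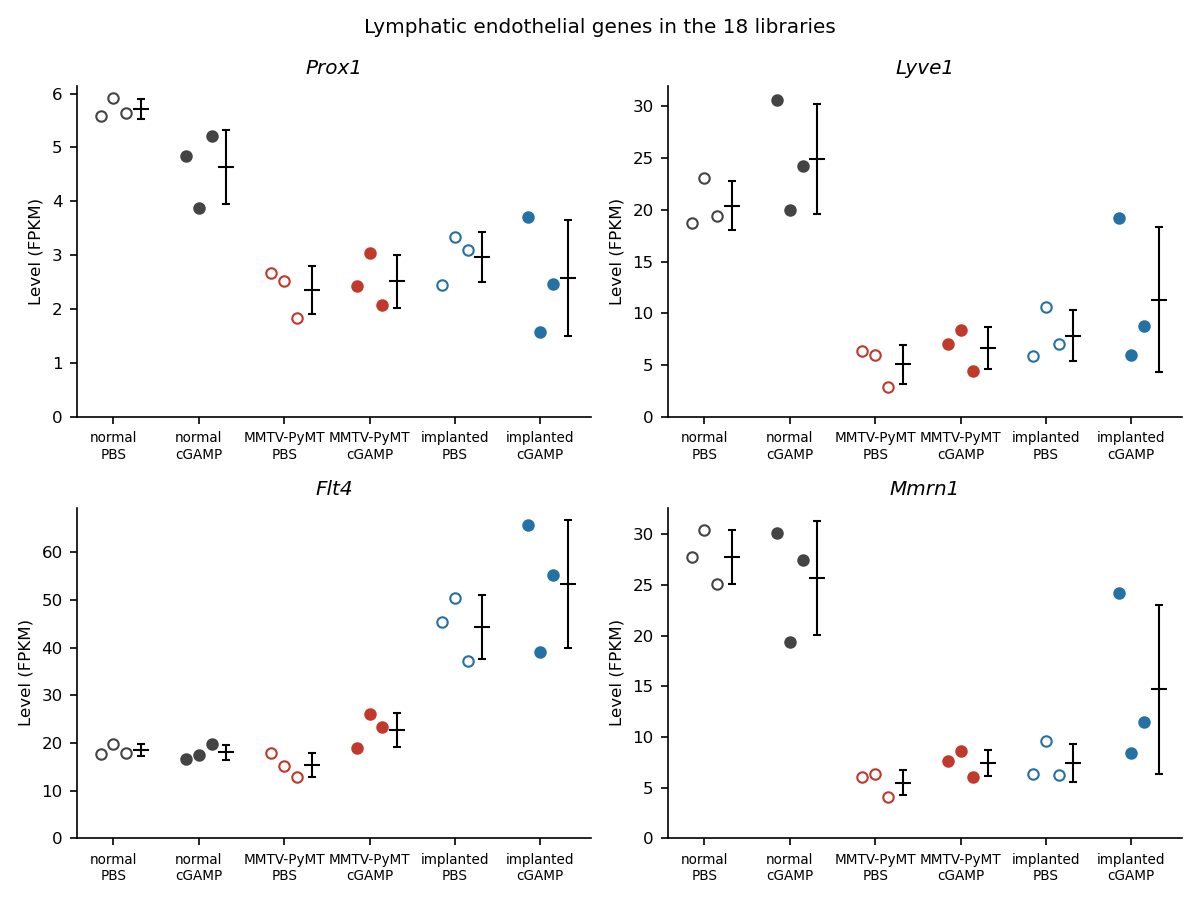
Level of Prox1, Lyve1, Flt4 and Mmrn1 (FPKM, linear axes from 0) in each library, with open points for PBS, filled points for cGAMP, and bars for the mean ± SD of 3 libraries. Prox1, Lyve1 and Mmrn1 sat lower in the tumour groups than in normal ECs, Flt4 sat highest in the implanted groups, and library 1 of the implanted cGAMP group stood above its group for Lyve1 (19.3 FPKM) and Mmrn1 (24.2 FPKM).

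The same tissue comparisons were made under cGAMP. MMTV-PyMT ECs again had 3 of 4 genes lower than normal ECs, beside 50.8% of all tested genes passing in either direction and 22.1% lower. The log2 changes were -0.68 for Prox1 (limma adjusted p = 0.00489), -1.79 for Lyve1 (limma adjusted p = 0.000432) and -1.64 for Mmrn1 (limma adjusted p = 0.000173), while Flt4 differed by 0.31 (95% interval -0.04 to 0.67) and passed as higher after pan-endothelial centring (0.55, limma adjusted p = 0.00142). In implanted ECs all 4 passed against normal ECs, 3 lower and Flt4 higher, beside 56.1% in either direction and 24.8% lower. Flt4 differed by 1.49, Lyve1 by -1.20 and Prox1 by -0.69. For Mmrn1 the difference was -0.87 (limma adjusted p = 0.0141), and here the libraries overlapped, since library 1 of the implanted cGAMP group (24.2 FPKM) was above the lowest normal cGAMP library (19.4 FPKM). That call did not hold without normal cGAMP library 1, without implanted cGAMP library 2 or without library 3 (limma adjusted p up to 0.0878), or with the compared groups alone (0.0764).

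Between the tumours under cGAMP, 2 of the 4 genes passed, Flt4 (log2 change 1.17 ± 0.17, SE, limma adjusted p = 3.43e-05) and Mmrn1 (0.77 ± 0.28, limma adjusted p = 0.0298), both higher in implanted ECs, beside 50.9% of all tested genes. The Flt4 libraries did not overlap, whereas those of Mmrn1 did. Without library 1 of the implanted cGAMP group the Mmrn1 difference was 0.37 (limma adjusted p = 0.186), and it also did not pass without library 1 or 3 of the MMTV-PyMT cGAMP group. Nor did it pass with total reads (0.46), voom (0.50), pan-endothelial centring (0.23) or a fit of the compared groups alone (0.77), with limma adjusted p-values of 0.146, 0.134, 0.345 and 0.103. The genes that passed changed with the setting, since Prox1, at -0.0076 here, was lower in implanted ECs after pan-endothelial centring (-0.56, limma adjusted p = 0.0087), and Lyve1 was higher without implanted cGAMP library 2 (0.93, limma adjusted p = 0.0314).

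**Figure D2:**
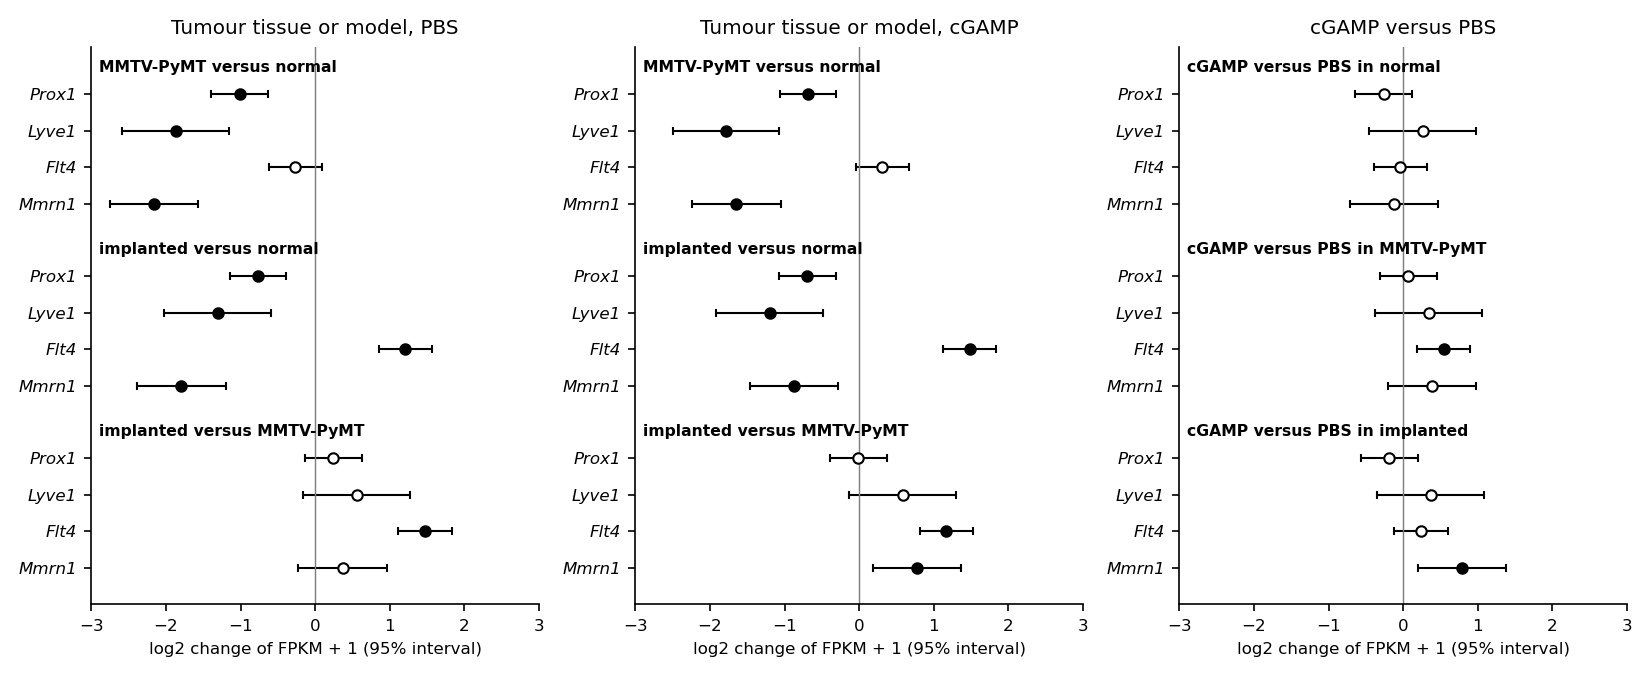
Log2 change of FPKM + 1 for each gene with its 95% interval, in the tissue comparisons under PBS (left) and cGAMP (middle) and for cGAMP against PBS (right). Filled points passed at an adjusted p below 0.05. Prox1, Lyve1 and Mmrn1 lie left of 0 in every comparison with normal ECs, Flt4 lies to the right in each comparison of implanted ECs, and 2 points passed for cGAMP.

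The order of the levels summarised these patterns. For Prox1 the normal PBS group was highest, followed by the normal cGAMP group, and the libraries of these groups did not overlap with each other or with the implanted PBS group below them, while the 4 tumour groups, with means between 2.35 and 2.96 FPKM, overlapped from one to the next. For Lyve1 and Mmrn1 each group overlapped with its neighbour in the order, from 24.95 and 20.4 FPKM in the normal groups down to 5.07 FPKM in the MMTV-PyMT PBS group for Lyve1, and from 27.8 to 5.50 FPKM for Mmrn1. For Flt4 the only break lay between the implanted groups (53.3 and 44.4 FPKM) and the other 4 groups (22.8 to 15.3 FPKM).

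The next comparison asked what cGAMP did within 3 h to the lymphatic genes of each tissue. In normal ECs none of the 4 genes passed, beside 31.9% of all tested genes, and by limma none had an unadjusted p under 0.05 either. The log2 changes with cGAMP were -0.26 for Prox1 (95% interval -0.64 to 0.12), 0.26 for Lyve1 (-0.45 to 0.98), -0.04 for Flt4 (-0.39 to 0.32) and -0.13 for Mmrn1 (-0.72 to 0.46). The Prox1 libraries under cGAMP, at 4.84, 3.88 and 5.21 FPKM, lay below the PBS libraries, but the change did not pass (limma adjusted p = 0.294). The share of all genes whose libraries separated in this way is not given here.

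In MMTV-PyMT ECs 1 of 4 genes passed, beside 12.0% of all tested genes. Flt4 stood at 19.0, 26.1 and 23.3 FPKM under cGAMP, each above the highest PBS library (17.9 FPKM), a log2 change of 0.54 ± 0.17 (SE, limma adjusted p = 0.0465). This p lay close to the threshold and passed in 10 of the 28 alternative analyses. The pan-endothelial sum of these libraries was 1045 to 1429 FPKM under cGAMP and 941.5 to 1143 FPKM under PBS. Prox1 (2.43, 3.04 and 2.07 FPKM), Lyve1 (7.05, 8.39 and 4.40 FPKM) and Mmrn1 (7.67, 8.62 and 6.09 FPKM) overlapped with their PBS libraries, with log2 changes of 0.07, 0.34 and 0.39.

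In implanted ECs 1 of 4 genes passed, beside 39.1% of all tested genes. Mmrn1 stood at 24.2, 8.41 and 11.5 FPKM under cGAMP, against 6.37, 9.57 and 6.28 FPKM under PBS, so that the groups overlapped. The log2 change was 0.79 ± 0.28 (SE, limma adjusted p = 0.0332), and without library 1 of the cGAMP group it was 0.39 and did not pass (limma adjusted p = 0.195). It also did not pass without library 1 or library 3 of the PBS group, nor with quantile normalization, total reads, voom or the compared groups alone (limma adjusted p = 0.0569, 0.120, 0.108 and 0.131). The summed platelet level was 6.62 to 11.5 FPKM under cGAMP, again highest in library 1, against 3.22 to 3.64 FPKM under PBS. Of the 4 platelet genes 3 passed as higher, beside 39.1% of all tested genes that passed in either direction. The part of platelet RNA was not tested. Lyve1 stood at 19.3, 5.95 and 8.80 FPKM, Prox1 at 3.71, 1.57 and 2.46 FPKM and Flt4 at 65.7, 39.1 and 55.2 FPKM, with log2 changes of 0.37, -0.18 and 0.24 that did not pass. Prox1 did pass as lower with voom on recovered reads (-0.58, limma adjusted p = 0.0414), and Flt4 as higher without library 2 of the cGAMP group (0.44, limma adjusted p = 0.0319). In each of these genes library 1 was highest and library 2, which had the most macrophage and fibroblast RNA, was lowest. Without library 1 the Lyve1 change was -0.06.

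Whether cGAMP acted differently between tissues was tested as the difference of its effects. None of the 4 genes passed in MMTV-PyMT against normal ECs (beside 8.37% of all tested genes), in implanted against normal ECs (18.6%) or in implanted against MMTV-PyMT ECs (11.1%). By limma the unadjusted p was under 0.05 for Flt4 in the first of these (log2 difference 0.58, 95% interval 0.08 to 1.09, adjusted p = 0.146) and for Mmrn1 in the second (0.92, 0.09 to 1.76, adjusted p = 0.117). The intervals of Lyve1 reached about 1 log2 unit on either side of 0 in each comparison (lowest bound -0.99, highest bound 1.12), so differences of up to about that size were not excluded with 3 libraries per group.

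Because the pan-endothelial genes were lower in MMTV-PyMT ECs, the lymphatic genes were also set against them within each library. Of the 11 pan-endothelial genes 8 passed as lower in MMTV-PyMT ECs under PBS, beside 26.6% of all tested genes. The 11 genes summed to 941.5 to 1143 FPKM in MMTV-PyMT PBS libraries, below normal (1427 to 1621 FPKM) and implanted ones (1492 to 1886 FPKM). The summed level of the 4 lymphatic genes was 4.66 ± 0.403% (SD, n = 3) of this sum in the normal PBS group. The MMTV-PyMT PBS group had 2.73 ± 0.369% and the implanted PBS group 3.74 ± 0.162%. Under cGAMP it was 5.18 ± 0.943%, 3.16 ± 0.330% and 3.96 ± 0.404%. The group means were in the same order under either treatment, with normal ECs highest, but under cGAMP the normal libraries (4.24 to 6.13%) overlapped with the implanted ones (3.51 to 4.29%).

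The place of implanted ECs in that order came from Flt4. Without Flt4, an alternative chosen after seeing the data, the share was 3.47 ± 0.329% in the normal PBS group, and the MMTV-PyMT (1.25 ± 0.282%) and implanted PBS libraries (1.08 ± 0.171%) overlapped. Flt4 by itself was 1.19 ± 0.0751% of the pan-endothelial sum in the normal PBS group, against 1.48 ± 0.0997% (MMTV-PyMT) and 2.66 ± 0.158% (implanted). With Pecam1 as the only reference, the 4 genes together stood at 23.2 to 27.3% of its level in normal PBS libraries, which overlapped with the implanted PBS libraries (24.2 to 27.6%) and not with the MMTV-PyMT PBS libraries (15.7 to 19.6%). The direction of the share depended on the reference. Against the mural list, also chosen after seeing the data, which was itself much lower in both tumours, the share was 6.68 ± 0.699% in the normal PBS group and higher in the tumours, at 10.3 ± 0.882% (MMTV-PyMT) and 25.4 ± 3.98% (implanted). These shares carry no test and are not shares of cells.

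**Figure D3:**
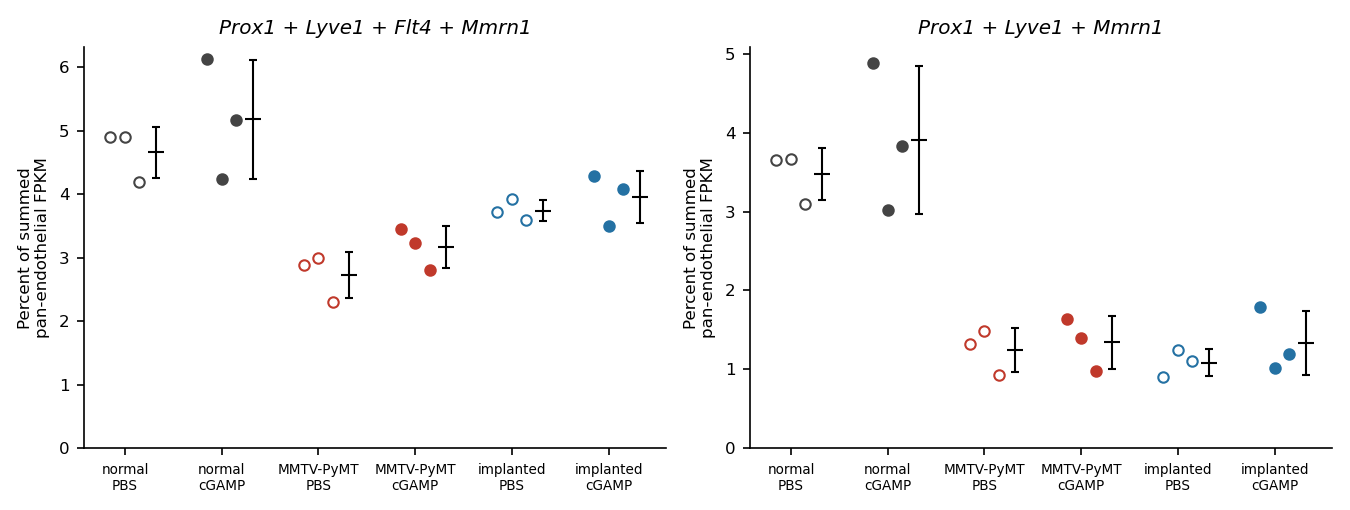
Summed FPKM of the lymphatic genes as a percent of the summed FPKM of 11 pan-endothelial genes in each library (linear axes from 0; open points PBS, filled points cGAMP, bars mean ± SD of 3 libraries), with Flt4 (left) and without it (right). With Flt4 the implanted PBS libraries (3.60 to 3.92%) sit between the MMTV-PyMT (2.31 to 2.99%) and normal libraries (4.20 to 4.90%), and without it (0.905 to 1.25%) they overlap with the MMTV-PyMT libraries (0.934 to 1.48%).

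The ratios between the genes, which do not depend on the scaling of a library, differed between tissues as well. FPKM values are scaled to a fixed length of each gene, whichever of its transcripts are present. A ratio of different genes is therefore approximate, and reads of Prox1 may have been shared with its overlapping genes. Flt4 was 3.24 ± 0.104 (SD, n = 3) times as high as Prox1 in the normal PBS group, 6.57 ± 0.538 times in the MMTV-PyMT PBS group and 15.2 ± 3.28 times in the implanted PBS group, and these ranges did not overlap (3.17 to 3.36, 5.98 to 7.03 and 12.0 to 18.6). Mmrn1 was 4.85 ± 0.358 times as high as Prox1 in the normal PBS group, but 2.33 ± 0.155 times (MMTV-PyMT) and 2.50 ± 0.429 times (implanted) in the tumours. In implanted cGAMP libraries it was 5.51 ± 0.945 times as high, above every implanted PBS library. MMTV-PyMT cGAMP libraries (2.84 to 3.16 times) also lay above their PBS libraries (2.21 to 2.505), while normal ones overlapped. Lyve1 was 4.65 to 6.32 times as high as Prox1 in normal and 3.58 to 5.20 times in implanted cGAMP libraries. These lay above their PBS libraries (3.36 to 3.90 and 2.28 to 3.18), while MMTV-PyMT ones overlapped. The ratios carry no test. Lyve1 and Mmrn1 kept closer to each other, with Lyve1 at 0.736 to 1.05 times Mmrn1 as group means over the 6 groups.

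Within groups, the genes were compared by how their replicate libraries deviated from the group mean, over the 18 libraries and all 6 pairs of genes. Lyve1 and Mmrn1 deviated together (Pearson r = 0.957, Spearman rho = 0.957, two-sided exact permutation within groups, p = 0.000171 for each, adjusted p = 0.000836 and 0.000643). So did Prox1 with Lyve1 (r = 0.931, rho = 0.899, exact permutation p = 0.000279 and 0.000214, adjusted p = 0.000836 and 0.000643) and Prox1 with Mmrn1 (r = 0.923, rho = 0.862, exact permutation p = 0.000579 and 0.00131, adjusted p = 0.00116 and 0.00261). Without the 2 libraries farthest from the median, which were implanted cGAMP libraries 1 and 2 in each case, r was 0.925, 0.878 and 0.832.

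Flt4 followed the other genes less closely by value. Its r was 0.738 with Prox1 (rho = 0.705, exact permutation p = 0.0284 and 0.0155, adjusted p = 0.0421 and 0.0232), 0.712 with Mmrn1 (rho = 0.589, exact permutation p = 0.0351 and 0.0537, adjusted p = 0.0421 and 0.0537) and 0.672 with Lyve1 (rho = 0.608, exact permutation p = 0.0534 and 0.0523, adjusted p = 0.0534 and 0.0537). Without implanted cGAMP libraries 1 and 2 these values of r were 0.488, 0.460 and 0.425, so the relation rested in part on those libraries. When each library was first centred on its pan-endothelial genes, r was 0.915 for Lyve1 with Mmrn1, 0.715 for Prox1 with Mmrn1 and 0.713 for Prox1 with Lyve1 (exact permutation, adjusted p = 0.000257, 0.00939 and 0.0120), but -0.004, 0.03 and -0.02 for Flt4 with Prox1, Mmrn1 and Lyve1 (each adjusted p = 0.989).

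**Figure D4:**
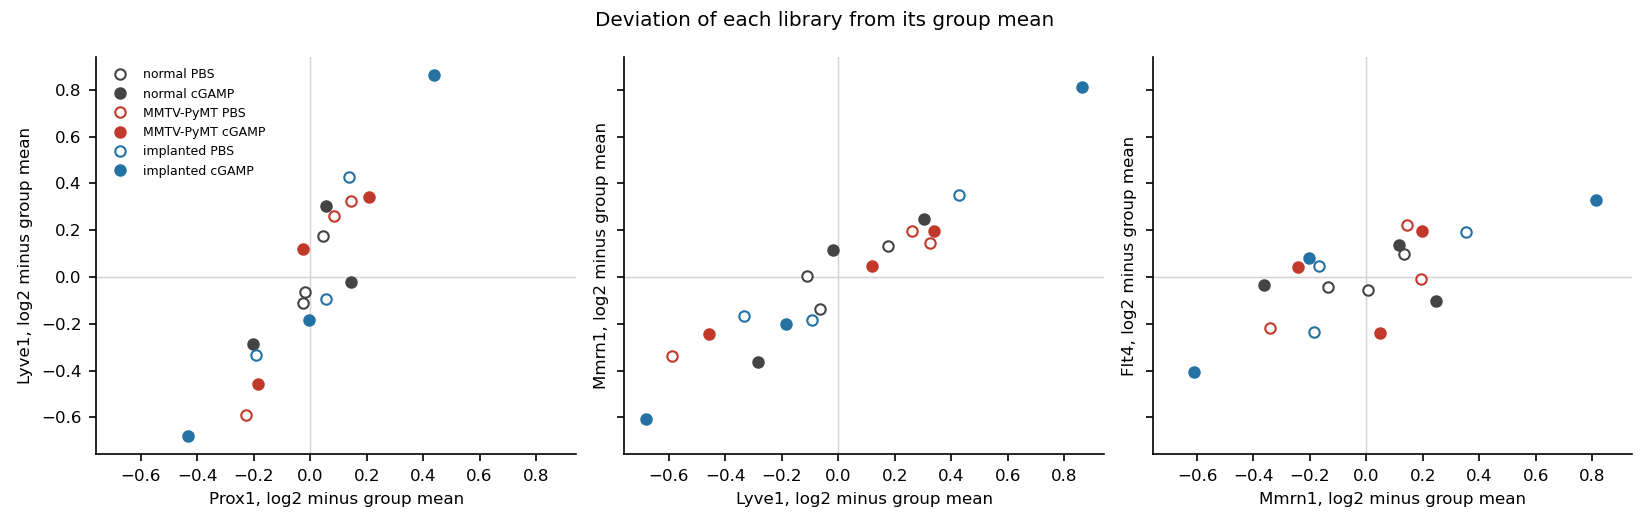
Deviation of each of the 18 libraries from its group mean on the log2(FPKM + 1) scale for Prox1 against Lyve1, Lyve1 against Mmrn1 and Mmrn1 against Flt4 (open points PBS, filled points cGAMP). The points of the first 2 panels follow a line (r = 0.931 and 0.957), those of the third scatter more (r = 0.712), and implanted cGAMP libraries 1 and 2 form the ends of each panel.

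Other genes were compared with the set in the same way. Of all tested genes, 16.9% had r above 0.5 with the mean deviation of the 4 lymphatic genes and 1.49% had r above 0.8. The mean of the pan-endothelial list stood at r = 0.86, and that of the epithelial list at r = -0.81 and of the macrophage list at r = -0.66. The 10 genes most like the lymphatic mean by this measure were Luzp1, Foxc2, Sdccag8, Mecom, Nck1, AC154542.1, Dmtn, Dst, Mef2c and Nod2, with r from 0.932 down to 0.904 over 18 libraries. Foxc2, a forkhead factor needed for lymphatic valves, was second (r = 0.928). With the differences between groups kept, the 5 most alike were Cds2, Mef2c, Adam15, Heg1 and Arhgap31 (r from 0.949 down to 0.936). Flt4 itself stood at r = 0.212 against 0.865 to 0.949 for Prox1, Mmrn1 and Lyve1. Each of these 4 lymphatic genes is part of the mean it was compared with, so its r is partly built in. Mef2c, an endothelial transcription factor, was in both sets, with 15.9 ± 0.628 FPKM in the normal PBS group against 5.90 ± 0.779 FPKM (MMTV-PyMT) and 8.47 ± 0.868 FPKM (implanted). These lists are descriptions, and the genes in them share the libraries and their makeup.

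Other genes of the lymphatic programme were taken from lists. Of 11 tested transcription factors known to act in lymphatic development, Prox1 included, 9 were lower and 1 was higher in MMTV-PyMT than in normal ECs under PBS, with a median log2 change of -1.22 beside 0.02 for all tested genes. In implanted ECs 7 were lower and 1 was higher, with a median of -0.81 beside 0.01. Of all tested genes 26.6% and 23.6% were lower. Nr2f2 (COUP-TFII), which acts with Prox1 in venous and lymphatic identity, changed by -1.93 in MMTV-PyMT ECs (limma adjusted p = 2.79e-06) and by -1.72 in implanted ECs (limma adjusted p = 1.06e-05). The factors Maf (-1.24 and -0.84), Gata2 (-1.22 and -0.97) and Nfatc1 (-1.23 and -0.81), of which Gata2 and Nfatc1 act in valves, also fell in both. The flow-responsive factors Klf2 (-2.52 and -1.82) and Klf4 (-2.32 and -2.69) fell furthest, and they are expressed in blood ECs too. Foxc1 was the factor that was higher in MMTV-PyMT ECs (0.64). Sox18, which switches on Prox1 in the embryo, was the factor that was higher in implanted ECs (0.99, limma adjusted p = 0.00069), with 122.4, 176.6 and 129.4 FPKM against 64.8, 77.0 and 70.4 FPKM in normal ECs.

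Of 14 tested genes of lymphangiogenic signalling, Flt4 included, 8 were lower and none higher in MMTV-PyMT ECs (median -0.47), whereas 3 were lower and 5 higher in implanted ECs (median 0.21). The 8 of 14 that passed in each tumour stood beside 56.5% and 48.7% of all tested genes, with 26.6% and 23.6% lower, so the number that passed was close to that of all genes. Vegfc, the main ligand of Flt4, stood at 22.1, 18.8 and 23.0 FPKM in normal PBS libraries. The MMTV-PyMT libraries held 4.95, 3.24 and 3.31 FPKM and the implanted ones 7.43, 7.70 and 5.41 FPKM. All tumour libraries lay below the normal ones, with log2 changes of -2.22 (limma adjusted p = 5.58e-07) and -1.51 (limma adjusted p = 3.17e-05). In the sorted ECs the RNA of the ligand was thus lower in both tumours, while that of the receptor was higher in implanted ECs. Vegfc made by other cells of the tissue, and the protein, were not measured here. The genes that rose in implanted ECs beside Flt4 were Angpt2 (2.10), a ligand of the Tie2 receptor, the peptide adrenomedullin Adm (1.69), the ephrin Efnb2 (0.83) and the VEGF receptor Kdr (0.69). The Tie2 receptor gene Tek (-1.37 and -1.96) and its ligand Angpt1 (-0.77 and -1.42) fell in both tumours.

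Among 13 other markers used for lymphatic ECs, 10 were lower and 1 higher in MMTV-PyMT ECs and 7 were lower and 2 higher in implanted ECs, with a median log2 change of -0.87 in each, beside 0.02 and 0.01 for all tested genes, of which 26.6% and 23.6% were lower and 56.5% and 48.7% passed in either direction. Reln (reelin), a glycoprotein secreted by lymphatic vessels, stood at 6.68, 6.27 and 5.26 FPKM in normal ECs. It stood at 0.955, 0.836 and 0.531 FPKM in the MMTV-PyMT PBS libraries and at 0.798, 1.92 and 1.40 FPKM in the implanted ones. Its log2 changes were -1.997 (limma adjusted p = 5.01e-06) and -1.60 (limma adjusted p = 5.37e-05). On the log2(FPKM + 1) scale these were close in size to the changes of Lyve1 and Mmrn1. The added 1 shrinks the change of a low gene such as Reln more, so the levels of Reln differed by more than this scale shows. Sema3d (-1.54 and -1.58), the tight junction gene Cldn11 (-1.56 and -1.63), the chemokine scavenger Ackr4 (-1.08 and -1.24) and the scavenger receptor Stab2 (-0.78 and -1.40) also fell in both. Ackr2, a chemokine scavenger of lymphatic ECs, went the other way, with 8.66, 11.6 and 7.96 FPKM in implanted ECs against 1.03, 1.32 and 0.974 FPKM in normal ECs (log2 change 2.29, limma adjusted p = 6.5e-08). Cp (ceruloplasmin) was higher in both tumours (0.81 in implanted ECs).

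**Figure D5:**
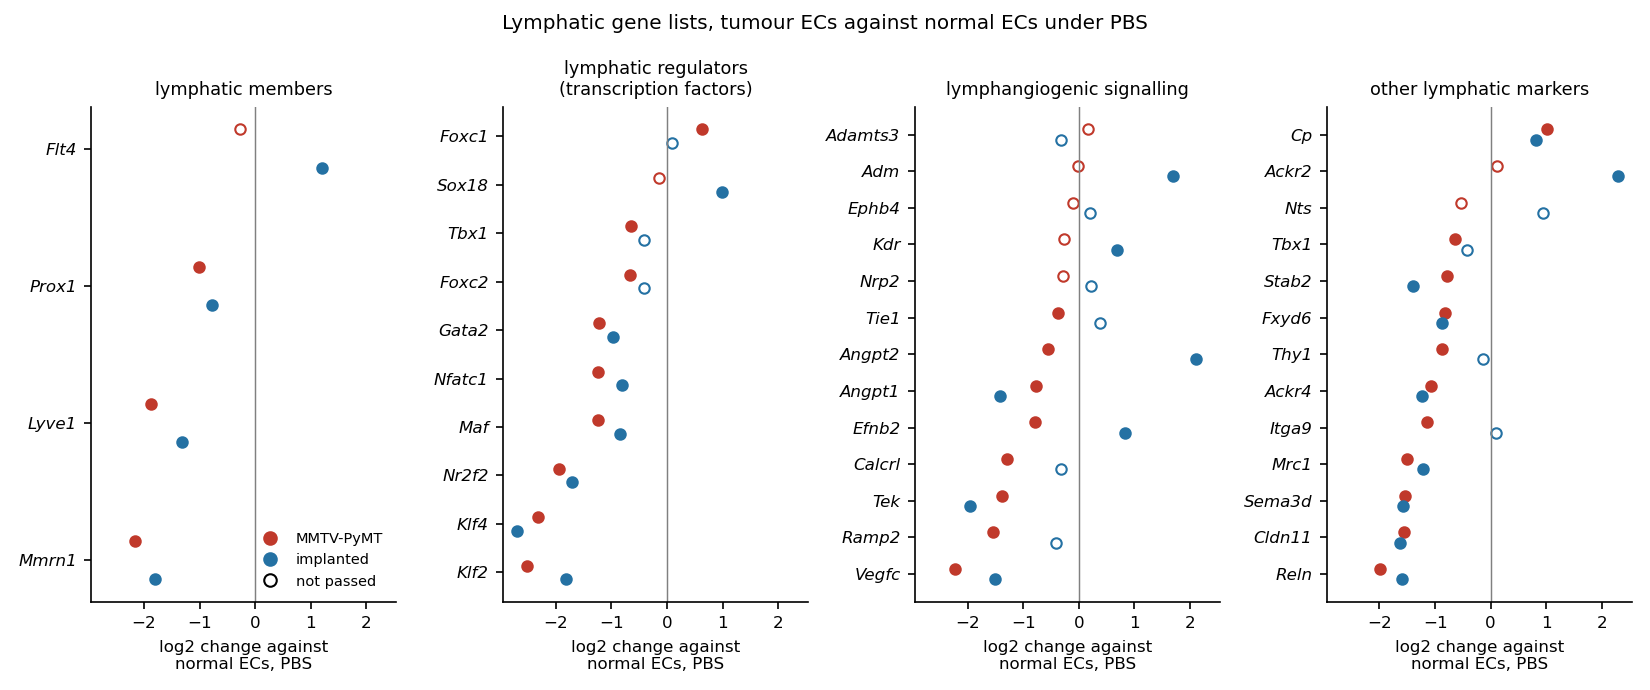
Log2 change of FPKM + 1 against normal ECs under PBS for the lymphatic genes and for 3 lists of other lymphatic genes, in MMTV-PyMT ECs (red) and implanted ECs (blue). Filled points passed at an adjusted p below 0.05. Most points lie left of 0 in the transcription factor and marker lists, while Flt4, Sox18, Angpt2, Adm and Ackr2 lie right of 0 in implanted ECs.

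The tumour comparisons were accompanied by changes in other cells' markers. Of all tested genes 56.5% passed in MMTV-PyMT and 48.7% in implanted ECs under PBS, with 26.6% and 23.6% lower. Of 8 mural markers 7 were lower in each tumour (median log2 changes -2.07 and -2.01), with sums of 1026 to 1148 FPKM in normal against 232.3 to 316.7 and 222 to 262.3 FPKM in tumour PBS libraries. Of 8 epithelial markers 5 were higher and 1 was lower in MMTV-PyMT ECs, with sums of 931.8 to 1013 FPKM against 446 to 576.5 FPKM. They were split in implanted ECs, where the sums (423.9 to 602.1 FPKM) overlapped with normal ones. There Epcam (0.70), Cdh1 (1.06) and Cldn7 (1.72) passed as higher, and Krt5 (-1.81) and Krt19 (-1.27) as lower. Blood endothelial markers were split, with 5 of 11 lower and none higher in MMTV-PyMT ECs and 5 lower and 4 higher in implanted ECs. The fibroblast sums were higher in the tumours, at 160.6 to 253.1 FPKM (MMTV-PyMT) and 285.1 to 322.5 FPKM (implanted) against 121.5 to 148.6 FPKM in normal PBS libraries, but the members were split. Of 8 fibroblast genes 2 were higher and 2 lower in MMTV-PyMT ECs (median 0.27), and 2 were higher and 3 lower in implanted ECs (median -0.0026). The numbers of fibroblast genes that passed, and of blood endothelial genes in MMTV-PyMT ECs, were near the shares of all tested genes. In implanted ECs the collagen genes Col1a1 (2.42) and Col1a2 (1.29) were higher, while Dcn (-1.92), Lum (-1.18) and Dpt (-2.05) were lower. The part of these shifts in the lymphatic differences was not tested.

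Other genes of the lymphatic lists did pass with cGAMP in normal ECs. In normal PBS libraries the transcription factors summed to 410.3 ± 49.1 FPKM (SD, n = 3) and the signalling genes to 558.8 ± 33.3 FPKM. Prox1, Lyve1, Flt4 and Mmrn1 together summed to 72.4 ± 6.08 FPKM. Whether changes of the list genes lay in lymphatic or in blood ECs was not tested. Of the 11 transcription factors 7 fell and none rose (median -0.55 beside -0.04 for all tested genes), and of the 14 signalling genes 6 fell and none rose (median -0.24). Of all tested genes 31.9% passed in either direction, close to the share of the other lymphatic markers (4 of 13). Vegfc fell from 22.1, 18.8 and 23.0 to 9.52, 6.68 and 10.52 FPKM (log2 change -1.19, limma adjusted p = 0.000735), and Sox18 from 64.8, 77.0 and 70.4 to 37.2, 28.0 and 35.8 FPKM (-1.06, limma adjusted p = 0.00093). Of the 7 factors, Nr2f2, Nfatc1, Klf2 and Klf4 did not pass without normal PBS library 1 or 3 or without cGAMP library 2 or 3 (limma adjusted p up to 0.122, 0.16, 0.133 and 0.147). Foxc2 (-0.83), Gata2 (-0.86), the adrenomedullin receptor Calcrl (-0.98) and its partner Ramp2 (-0.62) fell as well. The other markers were split, with 2 of 13 higher (Nts and Ackr2) and 2 lower (Fxyd6 and Ackr4), of which Fxyd6 did not pass without PBS library 2 or 3 or cGAMP library 2, and Ackr2 without PBS library 1 or 3 or cGAMP library 1. The neuropeptide Nts, used as a marker of collecting lymphatic vessels, rose from 1.22, 2.03 and 1.78 to 10.1, 11.6 and 6.93 FPKM (1.96, limma adjusted p = 0.00202).

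The same lists were counted in tumour ECs. The shares of all tested genes that passed were 12.0% in MMTV-PyMT and 39.1% in implanted ECs. In MMTV-PyMT ECs 1 transcription factor rose (Klf2, 0.94, limma adjusted p = 0.0167), 1 signalling gene rose (Flt4) and 1 fell (Angpt1, -0.54), and 1 other marker rose (Ackr2, 0.77). The Klf2 call did not hold without library 2 or 3 of either MMTV-PyMT group (limma adjusted p up to 0.0929), nor those of Angpt1 and Ackr2 without library 2 of the cGAMP group (0.0536 and 0.0779). In implanted ECs Sox18 fell (-0.89, limma adjusted p = 0.00222), as did the signalling genes Efnb2 (-0.56) and Kdr (-0.52), and Klf4 (0.90), Klf2 (0.65) and Nfatc1 (0.37) rose. Of these, Klf2, Nfatc1, Kdr and Efnb2 did not pass without library 1 of the implanted PBS group, which was 1 of 7, 4, 8 and 4 libraries whose omission ended the call (limma adjusted p up to 0.155, 0.144, 0.188 and 0.194). Nts rose from 3.00, 6.88 and 3.24 to 50.8, 15.8 and 17.3 FPKM (2.30, limma adjusted p = 0.000351), highest in library 1, and Adm rose from 20.96, 19.04 and 16.75 to 40.9, 43.1 and 35.4 FPKM (1.03, limma adjusted p = 0.000115). Sema3d (0.67) rose too, but without library 1 its change was 0.43 and did not pass (limma adjusted p = 0.0595). Mrc1, a receptor of lymphatic ECs and of macrophages, stood at 2.82, 8.14 and 1.36 FPKM against 0.974, 1.05 and 1.38 FPKM (1.03, limma adjusted p = 0.0354), highest in library 2, where the macrophage sum was 539.1 FPKM against 152.8 and 175.7 FPKM in libraries 1 and 3. Without library 2 the change was 0.50 and did not pass (limma adjusted p = 0.184). It also did not pass with total reads, pan-endothelial centring, voom or the compared groups alone (limma adjusted p up to 0.151). The part of macrophage RNA in the Mrc1 value was not tested.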

How the data were processed

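RNA-seq was performed on CD31-positive endothelial cells enriched with magnetic beads and then sorted as live, CD45-negative and CD31-positive cells. Tumours or fat pads had received 14 µg of cGAMP, or PBS. The authors prepared libraries with a directional kit, aligned reads with STAR (version 2.7) to mm10 and counted them with HTSeq, per their processing notes and methods, and deposited 1 table of FPKM values. Whether counting used strand is not stated in the sources used here. The columns of normal ECs name only the treatment, and were matched to the normal samples because the other columns name the tumours.

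Genes with at least 1 FPKM in at least 3 of 18 libraries (13983 of 16248) were tested with limma 3.58.1 (R 4.3.3, variance trend) on log2(FPKM + 1), with the 6 groups in 1 model and Benjamini-Hochberg adjustment over all tested genes in each of 12 comparisons. Whole reads could be recovered for 99.48% of genes (within 0.1 read) and give the depth. FPKM values are relative to the other RNA of a library. The scripts were tested on simulated data. All genes of the set, and any gene of the regulator, signalling and other marker lists, were named by rule, and so were the 10 and 5 genes most like the set. The genes and lists were chosen with earlier results of these data known. Of 5 adipocyte markers, none was analysed here, and neither were list members outside the table, such as Hhex and Ccl21a. Alternatives changed the pseudocount, filter, scaling, variance model, libraries and block.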

Additional observations from a re-analysis of the deposited data

Results flagged for a closer look

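The effect of cGAMP differed between tissues, by limma's test of the difference itself over all tested genes, for 17 combinations of gene and tissue pair in the lymphatic lists (11 regulators, 14 signalling genes and 13 other markers tested), and for none of Prox1, Lyve1, Flt4 and Mmrn1. Between MMTV-PyMT and normal ECs 2 regulators, 4 signalling genes and none of the other markers passed, beside 8.37% of all tested genes. Between implanted and normal ECs it was 4, 4 and 1, beside 18.6%, and between the tumours 2 signalling genes, beside 11.1%. Between MMTV-PyMT and normal ECs, the log2 difference of the effects was 1.65 for Klf2, 1.53 for Vegfc, 1.26 for Calcrl, 1.03 for Foxc2, 1.02 for Ramp2 and 0.90 for Tek. All of these genes fell with cGAMP in normal ECs. Between implanted and normal ECs it was 1.54 for Mrc1, 1.45 for Klf4, 1.35 for Klf2, 1.29 for Vegfc, 0.98 for Adm, 0.80 for Gata2, 0.77 for Nfatc1, 0.76 for Angpt1 and 0.74 for Calcrl. Between implanted and MMTV-PyMT ECs it was 0.90 for Adm and 0.78 for Angpt1. The Mrc1 value moved with implanted cGAMP library 2, in which macrophage markers were highest, and the part of macrophage RNA was not tested. Its call also did not hold with no filter, total reads, pan-endothelial centring, voom or no variance trend. Nor did it hold with the compared groups alone or the replicate block (limma adjusted p from 0.0519 to 0.236 over these settings). Leaving out 1 library ended the call for Mrc1 (16 of 18 libraries, limma adjusted p up to 0.12), for Foxc2 and Tek (9 and 8 libraries of the normal and MMTV-PyMT groups, up to 0.1 and 0.0926), for Gata2 and Calcrl between implanted and normal ECs (7 and 5 libraries of those groups, up to 0.0683 and 0.0746), and for Adm between the tumours (MMTV-PyMT PBS library 2 or implanted PBS library 3, up to 0.0535).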

How the results depend on the processing

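In every alternative run that tested them, Prox1, Lyve1 and Mmrn1 were lower than in normal ECs under PBS in both tumours. Flt4 was higher in implanted ECs than in either other tissue in each run. The call held each time, except for Prox1 in MMTV-PyMT ECs after centring on the pan-endothelial genes (limma adjusted p = 0.0552). Of the calls for cGAMP, that of Flt4 in MMTV-PyMT ECs held in 10 of 28 alternatives and that of Mmrn1 in implanted ECs in 21 of 28. The other scalings moved the median of all genes, to between -0.33 and -0.11 with total reads, -0.45 and -0.11 with limma voom on recovered reads, and -0.63 and 0.66 with pan-endothelial centring. With that centring fewer genes passed: 558 against 1676 for cGAMP in MMTV-PyMT ECs (3313 with total reads, 3592 with voom), 1857 against 4458 in normal and 2942 against 5464 in implanted ECs, 3761 against 6804 for implanted against normal ECs under PBS, and 253 against 1171, 802 against 2602 and 430 against 1546 for the differences of the cGAMP effect. Under cGAMP the share of passing genes that were lower was 43.5% for MMTV-PyMT against normal ECs (22.8% with centring, 60.4% with total reads) and 44.3% for implanted against normal ECs (72.4% and 78.4%). With a mean FPKM of at least 5, 6910 genes were tested and Prox1 was not among them. For MMTV-PyMT against normal ECs under PBS 4543 then passed, against 7894. Leaving out library 2 or 3 of either MMTV-PyMT group gave 866 to 1105 calls for cGAMP in MMTV-PyMT ECs. For the difference of the effect between MMTV-PyMT and normal ECs, 626 to 712 passed without normal PBS library 2 or 3, MMTV-PyMT PBS library 3 or MMTV-PyMT cGAMP library 2 or 3. Apart from the filter and the omitted libraries, the causes were not tested.

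For MMTV-PyMT against normal ECs, Prox1, Lyve1, Flt4 and Mmrn1 had a median of -1.44 (log2) under PBS and -1.16 under cGAMP. With only 3 of them, after the FPKM filter or without Flt4, it was -1.87 and -1.64. For implanted against normal ECs under cGAMP it was -1.20 with total reads, -1.41 with voom and -1.10 with pan-endothelial centring. Voom gave -1.37 for implanted against normal ECs under PBS and -1.48 for MMTV-PyMT against normal ECs under cGAMP. Pan-endothelial centring gave -0.80 for MMTV-PyMT against normal ECs under PBS, -0.16 and 0.13 for implanted against MMTV-PyMT ECs under PBS and cGAMP, and 0.014 and -0.14 for the differences of the cGAMP effect of MMTV-PyMT and implanted from normal ECs. For single genes the same centring gave 0.37 for Flt4 (MMTV-PyMT against normal), -0.38, -0.062 and -0.25 for Prox1, Lyve1 and Mmrn1 (implanted against MMTV-PyMT), 0.082 for Angpt2 and 0.26 for Tie1 (MMTV-PyMT against normal), all under PBS, and for cGAMP 0.14 for Flt4 and 0.047 for Mmrn1 in normal ECs and -0.16 for Prox1 in MMTV-PyMT ECs. The cGAMP change of Flt4 in implanted ECs was -0.10 with quantile normalization, -0.075 with total reads and -0.077 with voom, and that of Prox1 in MMTV-PyMT ECs was -0.028 with total reads and -0.030 with voom.

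Without 1 library, the cGAMP changes in normal ECs ranged from -0.11 to 0.014 for Flt4 and from -0.25 to 0.055 for Mmrn1, that of Prox1 in MMTV-PyMT ECs from -0.045 to 0.16, and those in implanted ECs from -0.40 to 0.033 for Prox1 and from -0.062 to 0.71 for Lyve1. Prox1 in implanted against MMTV-PyMT ECs under cGAMP ranged from -0.23 to 0.21. The median ranged from -1.09 to -0.52 for implanted against normal ECs under cGAMP, from 0.26 to 1.002 for implanted against MMTV-PyMT ECs under cGAMP, and from -0.44 to 0.16 for the difference of the cGAMP effect between them.

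The log2 difference of the lymphatic to pan-endothelial ratio changed with how the ratio was formed. Under PBS it was -0.78 for MMTV-PyMT against normal ECs, and -0.53 with Pecam1, -1.50 without Flt4 and 0.63 with the mural list. It was -0.31 for implanted against normal ECs, and -0.74 with geometric means, -0.0056 with Pecam1, -1.69 without Flt4 and 1.92 with the mural list. Between the tumours it was 0.46, and 0.11 with geometric means, -0.19 without Flt4 and 1.29 with the mural list. For cGAMP in implanted ECs it was 0.075, and 0.27 without Flt4. After centring, r was -0.0040 for Prox1 with Flt4, -0.025 for Lyve1 with Flt4 and 0.030 for Flt4 with Mmrn1.

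Libraries with the same number did not deviate together more than others (45 pairs, median r = -0.013, against 0.010 in 90 pairs with different numbers). The study names independent experiments, but whether the library numbers mark them is not stated. These values cannot show that the numbers carry no batch. With the replicate block, the median for MMTV-PyMT against normal ECs under PBS was again -1.44, 4207 against 4458 genes passed for cGAMP in normal ECs, and no count of calls moved by more than 1.5 times. Of 145 results 137 kept their side of the threshold and 8 did not, among them Flt4 for cGAMP in MMTV-PyMT ECs (limma adjusted p = 0.0700).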
